A study of Mus musculus with 8 samples.

Results

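The PPARα program of fatty acid oxidation was followed through 8 genes in mouse intestinal epithelial cells (IECs) with and without the RNA helicase DDX5. The 8 members are the receptor Ppara, the oxidation genes Cpt1a, Acadm and Ehhadh, the fuel switch Pdk4, the secreted lipase inhibitor Angptl4, the lipid droplet protein Plin2 and the fatty acid carrier Fabp3. They were taken by gene name and not by their values. All 8 were listed in both deposited tables, out of 40178 genes listed in either table. RNAseq had been performed on colonic and ileal IECs of 2 mice per genotype, which gave 8 libraries. WTIEC mice carried DDX5(+/+) and Vil1Cre(+), and DDX5ΔIEC mice carried DDX5(fl/fl) and Vil1Cre(+), so every mouse carried the Cre. The mice were healthy littermates, 8 weeks old by the labels. The Villin1 promoter drives the Cre in the gut epithelium, and the cells were those that EDTA washes released, a fraction enriched for epithelium. In such bulk RNA, fewer cells of a type and less RNA per cell cannot be told apart.

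PPARα is a nuclear receptor that binds fatty acids and pairs with a retinoid X receptor on DNA. It is best known in the fasted liver, where it raises genes that carry fatty acids into mitochondria and peroxisomes, oxidise them and turn the product into ketone bodies. In the gut, absorptive cells take up dietary fat in the small intestine and burn bacterial short-chain fatty acids in the colon.

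The DNA site of the receptor pair is built from copies of the hexamer AGGTCA, and the promoter stretches that hold it are shown here so that the members can be compared with a classical target. Promoters from RefSeq (GRCm38.p6, from 250 bases before to 50 after each start) were found for 7 of the 8 members. Angptl4 was not matched. The hexamer AGGTCA, searched on both strands, was in the promoters of 3 of these 7 members (Cpt1a, Acadm and Plin2) and in 5340 of all 32851 promoters (16.3%). The spaced pair AGGNCANAGGNCA, a pair of looser hexamers 1 base apart in which N is any base, was in 125 promoters (0.381%). It was in none of the 7 members and in 1 pathway gene, Fabp1. Each window of 30 bases is written 5′ to 3′ on the strand of its gene, with the match in capitals, which in each of them reads as the reverse complement.
Acadm (chr3:153944864-153944893, minus strand): gTGACCTtcgggctccggtgacactgggca
Plin2 (chr4:86670260-86670289, minus strand): tttcaggaccccTGACCTaagtcagacagc
Cpt1a (chr19:3323195-3323224, plus strand): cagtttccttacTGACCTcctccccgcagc
Fabp1 (chr6:71199804-71199833, plus strand): acaatcacTGACCTATGGCCTatatctgag
The 3 member windows hold a single hexamer each, and only the Fabp1 window holds the spaced pair. These matches describe letters in a window, not binding.

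Total counts per library ranged from 11571061 to 22984283. Ddx5 RNA was 771 and 706 CPM (counts scaled to a common library size) in WTIEC colon and 367 and 355 in DDX5ΔIEC colon. It was 701 and 700 in WTIEC ileum and 340 and 326 in DDX5ΔIEC ileum, so both DDX5ΔIEC mice lay below both WTIEC mice in each tissue. Some libraries stood apart. In the ileum of DDX5ΔIEC replicate 2, 3 repeat-like genes took 19.5% of all counts, against 0.226% to 4.04% in the other ileum libraries. In DDX5ΔIEC replicate 1, Ppara, Pdk4, Angptl4 and Ehhadh were at their lowest of the 4 colon libraries, whereas Plin2 was at its highest, as given below. Cpt1a and Acadm were neither highest nor lowest there. The summed level of 6 epithelial markers was 8371 to 15300 CPM in all 8 libraries, and 4 adipocyte markers (Adipoq, Lep, Plin1 and Cfd) had no count in any colon library and summed to at most 0.535 CPM in the ileum. CPM values below were scaled over all 8 libraries by the TMM method.

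Ppara, the receptor itself, was a gene of low level. It was 16.3 and 18.8 CPM in WTIEC colon, 11.3 and 22.1 in DDX5ΔIEC colon, 22.1 and 22.3 in WTIEC ileum and 25.9 in each DDX5ΔIEC ileum. The lowest ileum library was level with the highest colon library, and the lowest value of all was DDX5ΔIEC colon replicate 1. Ppara lies on chromosome 15 of GRCm38, from 85734983 to 85802819.

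The 3 oxidation genes were the steadiest members. Cpt1a, which builds acylcarnitines at the outer mitochondrial membrane and so admits long-chain fatty acids, was 284 and 278 CPM in WTIEC colon and 280 and 315 in DDX5ΔIEC colon. In the ileum it was 204 and 221 in WTIEC and 178 and 211 in DDX5ΔIEC. Every colon library lay above every ileum library. Acadm, the medium-chain acyl-CoA dehydrogenase (chromosome 3, 153922357 to 153944632), was 128 and 111 CPM in WTIEC colon, 121 and 128 in DDX5ΔIEC colon, 111 and 108 in WTIEC ileum and 133 and 114 in DDX5ΔIEC ileum. Ehhadh, the bifunctional enzyme of peroxisomal β-oxidation (chromosome 16, 21761287 to 21787807), was 44.8 and 49.4 CPM in WTIEC colon, 43.2 and 49.4 in DDX5ΔIEC colon, 79.3 and 83.4 in WTIEC ileum and 77.7 and 75.3 in DDX5ΔIEC ileum. Ehhadh thus had the opposite order to Cpt1a, with every ileum library above every colon library, whereas the Acadm values of the tissues overlapped.

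Pdk4, the kinase that shuts the pyruvate dehydrogenase complex and spares glucose, varied widely between mice of the same group in the colon. It was 6.09 and 19.8 CPM in WTIEC colon and 2.10 and 31.3 in DDX5ΔIEC colon, from 116, 450, 38 and 686 counts. In the ileum it had 9 and 4 counts in WTIEC and 3 and 12 in DDX5ΔIEC, which gave 0.415, 0.278, 0.281 and 1.28 CPM. Every colon library was above every ileum library, and the DDX5ΔIEC colon libraries held both the highest and the lowest colon value. Pdk4 lies on chromosome 6 from 5483351 to 5496309.

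Angptl4, a secreted inhibitor of lipoprotein lipase, was 0.630 and 5.81 CPM in WTIEC colon and 0.276 and 6.15 in DDX5ΔIEC colon, from 12, 132, 5 and 135 counts. In the ileum it was 4.29 and 12.7 CPM in WTIEC and 36.9 and 17.4 in DDX5ΔIEC, from 93, 183, 394 and 163 counts. In the colon the replicates numbered 2 lay far above those numbered 1 in both genotypes. In the ileum both DDX5ΔIEC mice lay above both WTIEC mice.

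Plin2, a coat protein of cytosolic lipid droplets (chromosome 4, 86648386 to 86670060), was 76.9 and 78.9 CPM in WTIEC colon and 146 and 94.6 in DDX5ΔIEC colon. In the ileum it was 34.9 and 31.9 in WTIEC and 40.7 and 39.6 in DDX5ΔIEC. In each tissue both DDX5ΔIEC mice lay above both WTIEC mice, and all 4 groups were separate from each other.

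Fabp3, the fatty acid binding protein best known from heart and muscle (chromosome 4, 130308595 to 130315463), was near absent from the colon, with 0 and 1 counts in WTIEC and 0 and 1 in DDX5ΔIEC. In the ileum it had 5 and 4 counts in WTIEC and 41 and 11 in DDX5ΔIEC, which gave 0.231, 0.278, 3.84 and 1.18 CPM. Both DDX5ΔIEC ileum libraries lay above all others. For comparison, 3 counts, the limit that a count of 0 allows, stood for 0.132 to 0.320 CPM per library. The pseudogene Fabp3-ps1 had 2 counts in DDX5ΔIEC ileum replicate 2 and none in the other 7 libraries.

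**Figure D1:**
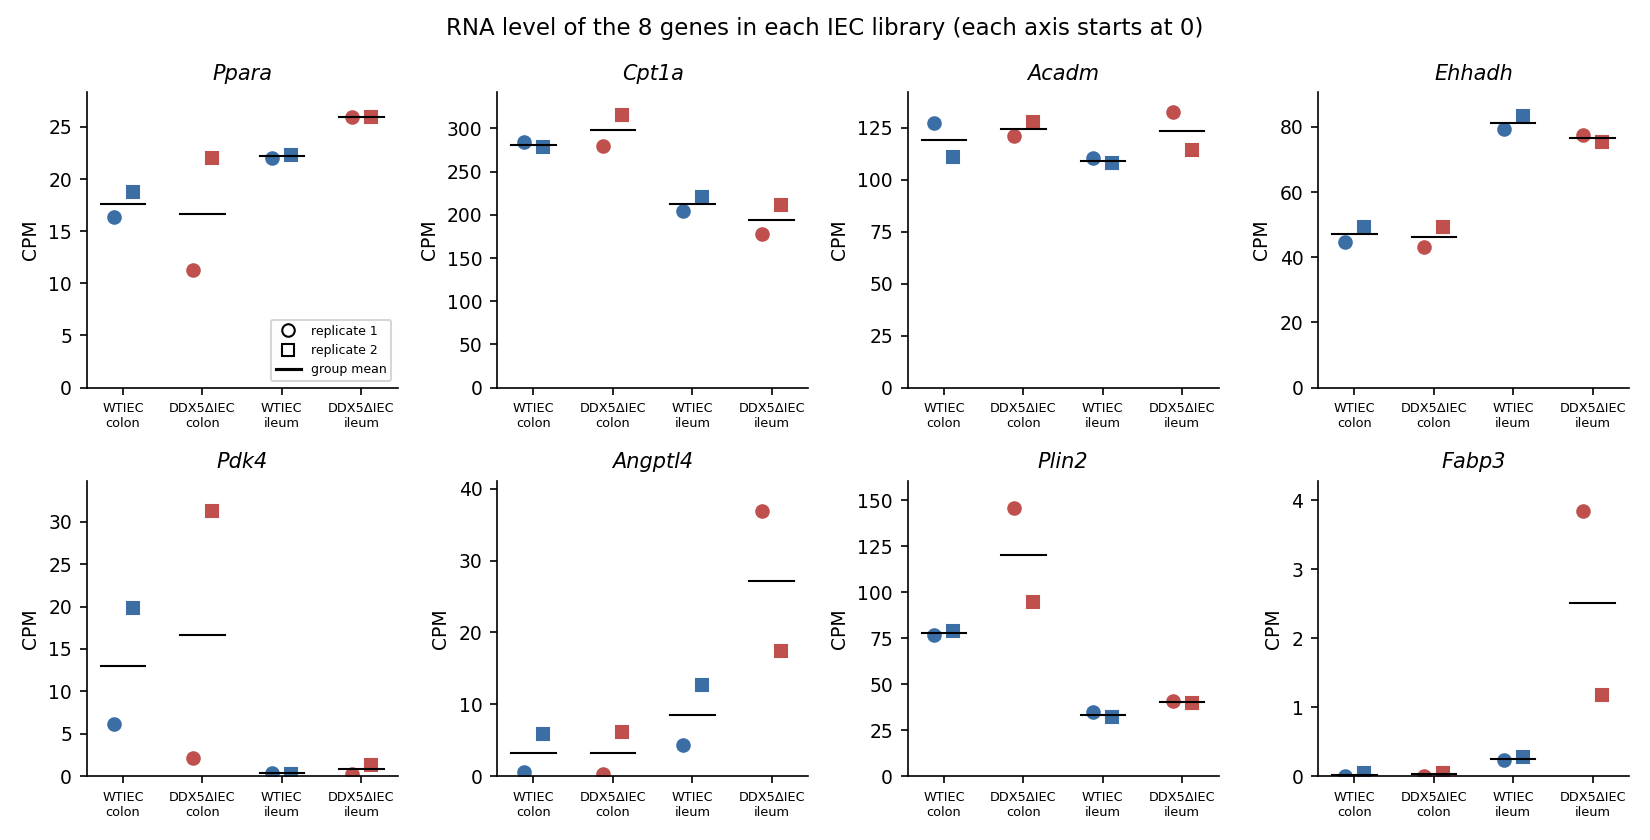
RNA level of each of the 8 genes in CPM (vertical axes, each from 0) in the 4 groups, with 1 point per library (circles, replicate 1; squares, replicate 2) and a line at the group mean. Cpt1a, Acadm and Ehhadh varied little between mice, whereas Pdk4 ranged from 2.10 to 31.3 CPM in the colon of DDX5ΔIEC mice and Angptl4 from 17.4 to 36.9 in their ileum.

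Levels of different genes were compared per kilobase of exon. In WTIEC colon the order was Cpt1a (65.3 ± 0.943 CPM per kb, mean ± SD of 2 mice), Acadm (30.5 ± 2.97), Plin2 (22.2 ± 0.408), Ehhadh (15.8 ± 1.10), Ppara (4.58 ± 0.454), Pdk4 (3.69 ± 2.76), Angptl4 (0.980 ± 1.12) and Fabp3 (0.0267 ± 0.0378). Pdk4 overlapped both Ppara above it and Angptl4 below it in this order, and the other neighbours did not overlap. In WTIEC ileum, Cpt1a was again highest (49.5 ± 2.76), Acadm and Ehhadh lay together (27.9 ± 0.511 and 27.3 ± 0.975), Plin2 and Ppara followed (9.52 ± 0.608 and 5.78 ± 0.0390), and Angptl4 (2.58 ± 1.81), Fabp3 (0.309 ± 0.0402) and Pdk4 (0.0987 ± 0.0278) were lowest. In DDX5ΔIEC ileum, Angptl4 (8.27 ± 4.19) stood between Plin2 (11.4 ± 0.211) and Ppara (6.76 ± 0.00805) and overlapped Ppara.

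Within a single library, the counts of 2 members can be set against each other without any scaling between libraries. Cpt1a had 2.22 to 2.50 times the counts of Acadm in the 4 colon libraries and 1.34 to 2.05 times in the 4 ileum libraries. Pdk4 had 0.0477 and 0.178 times the counts of Acadm in WTIEC colon and 0.0173 and 0.245 times in DDX5ΔIEC colon. Plin2 had 0.603 and 0.710 times the counts of Acadm in WTIEC colon and 1.21 and 0.740 times in DDX5ΔIEC colon. The Plin2 difference of replicate 1 was thus also present against another member of the same library.

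The first comparison asked how the colon of DDX5ΔIEC mice differed from that of WTIEC mice. Of the 8 members, Plin2 alone met the study's criterion, an absolute log2 fold change of at least 0.5 with an unadjusted p-value under 0.05. Plin2 rose by 0.58 on the log2 scale (SE 0.17), for which the quasi-likelihood test of edgeR gave an unadjusted p = 0.0207 and an adjusted p = 0.340. The ratio of DDX5ΔIEC to WTIEC was 1.90 in the replicates numbered 1 and 1.20 in those numbered 2. Without DDX5ΔIEC replicate 1 the log2 fold change of Plin2 was 0.28 and was no longer called. Fits without 1 library held the other 7 of both tissues and did not include the replicate number as a block. The other 6 tested members were not called, and Fabp3 was too low to test. Of all genes tested, 6.71% met the criterion, against 1 of 7 members. None passed an adjusted p under 0.05 in edgeR (0.0%), although 1836 had an unadjusted p under 0.05 and DESeq2 with the same design passed 117. Both DDX5ΔIEC colon libraries also had a higher sum of 8 mature absorptive markers than both WTIEC libraries (1960 and 1337 CPM against 1104 and 1006), with 3 of 6 tested markers higher and none lower by the criterion. All 3 tuft markers were lower (sums of 16.4 and 38.0 against 53.1 and 59.6 CPM). The 4 Paneth markers summed to 203 and 390 against 1316 and 1504 CPM, with 1 of 3 tested markers lower. Nearly all of this sum was Ang4, at 200 and 387 against 1312 and 1502 CPM. Lyz1, Defa24 and Mmp7 were at most 2.10 CPM in every colon library. Goblet markers summed to 24540 and 38430 against 43160 and 48430 CPM, with 2 of 5 lower and none higher. T cell and leukocyte markers summed to 6.18 and 14.1 against 30.5 and 24.7 CPM, also with 2 of 5 lower and none higher. Enteroendocrine markers summed to 145 and 182 against 134 and 137 CPM, with 2 of 5 higher and none lower. The part of these shifts in the Plin2 result was not tested. Plin2 was also the 1 of 7 members whose genotypes did not overlap, against 44.6% of all genes.

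The oxidation genes of the colon had log2 fold changes close to 0, at 0.07 (SE 0.09) for Cpt1a, 0.05 (SE 0.10) for Acadm and −0.04 (SE 0.09) for Ehhadh. Ppara was at −0.14 (SE 0.21), Angptl4 at −0.21 (SE 0.35) and Pdk4 at −0.19 (SE 0.50). The last 3 rested on single libraries. Without DDX5ΔIEC replicate 2, Pdk4 was at −2.63 and Ppara at −0.64 and both met the criterion. Without DDX5ΔIEC replicate 1, Pdk4 was at 1.26 and met it in the other direction. These fits without 1 library also had no replicate block. No direction of Pdk4, Ppara or Angptl4 in the colon can be read from these 4 libraries.

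The second comparison asked the same of the ileum. Fabp3 and Angptl4 met the criterion, both higher in DDX5ΔIEC, and the other 5 tested members did not. Of all genes tested, 7.35% met it, 3.87% on the higher side, and 0.697% (98 genes) had an adjusted p under 0.05. With the 3 repeat-like genes removed, these 98 genes became 20. Pdk4 was too low to test. Fabp3 rose by 3.30 on the log2 scale (SE 0.58, adjusted p = 0.0306 in edgeR). The ratio was 16.7 in the replicates numbered 1 and 4.24 in those numbered 2. Fabp3 passed the filter on low counts only through the DDX5ΔIEC libraries, so its count among the members is no support for a direction of the list. It met the criterion under each alternative tried, but its adjusted p in edgeR was 0.430 without the replicate number as a block. Without any 1 library, also with no block, its log2 fold change was 2.19 to 3.92, lowest without DDX5ΔIEC replicate 1. Angptl4 rose by 1.77 (SE 0.45, unadjusted p = 0.00227, adjusted p = 0.124 from the same test), with ratios of 8.60 and 1.38. It lost this call in both DESeq2 fits and in the fit of all 8 libraries, which has no replicate block. Without any one of the 4 ileum libraries, in fits of that same kind, it was 1.06 to 2.67 and again not called. The call was thus lost before any library was left out. 

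The remaining ileum members moved little. Plin2 was at 0.27 (SE 0.14), Ppara at 0.23 (SE 0.15), Acadm at 0.18 (SE 0.14), Cpt1a at −0.13 (SE 0.14) and Ehhadh at −0.09 (SE 0.14). For Ppara, Acadm, Plin2 and Ehhadh the 2 genotypes did not overlap, as was true of 39.5% of all genes tested. The ileum library with the highest Fabp3 and Angptl4, DDX5ΔIEC replicate 1, also had the highest sum of 4 muscle fibre markers (24.6 CPM, of which Acta1 was 24.4, against 5.55 to 8.89 in the other 3 ileum libraries). Myh6 had no count there, and Acta1 was also at 9.71 to 17.3 CPM in the colon libraries, where Fabp3 was near absent. That library also had the highest sum of 8 mature absorptive markers (15490 CPM against 10190 to 11860). As in the colon, all 3 tuft markers were lower by the criterion in DDX5ΔIEC (sums of 153 and 203 against 238 and 370 CPM). Of 5 enteroendocrine markers, 3 were higher and none lower (sums of 103 and 86.6 against 65.3 and 61.9 CPM). The part of these markers in the Fabp3 and Angptl4 results was not tested.

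**Figure D2:**
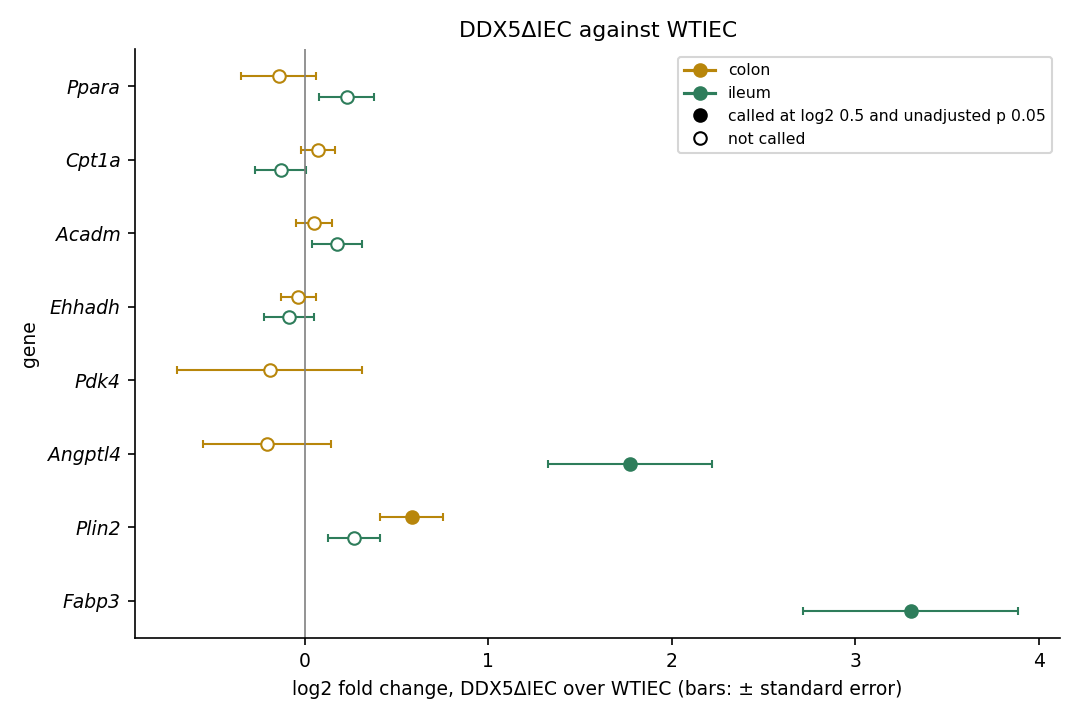
Log2 fold change of DDX5ΔIEC over WTIEC for each member (horizontal axis, bars are ± the standard error) in the colon and the ileum, with filled points for members that met the criterion. Plin2 was at 0.58 in the colon, Angptl4 at 1.77 and Fabp3 at 3.30 in the ileum, and the 3 oxidation genes lay within 0.18 of 0 in both tissues. Fabp3 in the colon and Pdk4 in the ileum were too low to test.

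Whether the genotype difference itself differed between tissues was tested as an interaction over all 8 libraries. None of the 8 members passed an adjusted p under 0.05 in edgeR or had an unadjusted p under 0.05, as against 2 of 16178 genes past the adjusted threshold (0.0124%) and 17 in DESeq2. The difference of log2 fold changes, ileum minus colon, was 3.26 (SE 2.82) for Fabp3, 1.71 (SE 1.51) for Angptl4, 0.69 (SE 2.40) for Pdk4 and −0.36 (SE 0.26) for Plin2, each with an adjusted p = 1.00. The colon side of the Fabp3 value rested on 1 count in each genotype. With no filter on low counts, 1 member, Angptl4, was called. A different response of the members in colon and ileum was therefore not shown, and the errors of Fabp3, Angptl4 and Pdk4 were wide.

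The clearest differences among the members were between the 2 parts of the gut. In WTIEC mice, Pdk4, Plin2, Cpt1a and Ehhadh differed between ileum and colon at an adjusted p under 0.05, as did 34.2% of all genes. Pdk4 entered these fits through the colon alone and Fabp3 through DDX5ΔIEC ileum alone, the groups where each is high, so the number of members called is no support for the list. Of the other 6 members, 3 were called. Pdk4 was lower in the ileum by a log2 ratio of −5.16 (SE 1.43, adjusted p = 0.0233), Plin2 by −1.22 (SE 0.19, adjusted p = 0.00136) and Cpt1a by −0.40 (SE 0.13, adjusted p = 0.0404). Ehhadh was higher, at 0.79 (SE 0.11, adjusted p = 0.000925). The log2 ratio was 3.05 for Fabp3, 1.33 for Angptl4, 0.33 for Ppara and −0.13 for Acadm, none of which was called. With no filter on low counts, Angptl4 (1.27, adjusted p = 6.14e-07) and Fabp3 (3.01, adjusted p = 0.0386) were called in edgeR. The ileum and colon values did not overlap for 7 of the 8 members, Angptl4 being the exception, as was true of 72.8% of all genes. The limit on counting Pdk4 and Fabp3 holds for this number too.

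In DDX5ΔIEC mice these 4 members and Fabp3 were called, as were 35.3% of all genes, with the same limit on counting Pdk4 and Fabp3. Again 7 of the 8 members did not overlap between tissues, under that same limit, now with Acadm as the exception, against 66.6% of all genes. The log2 ratio of ileum over colon was −4.46 for Pdk4 (adjusted p = 0.0368), −1.58 for Plin2 (adjusted p = 0.000372), −0.61 for Cpt1a (adjusted p = 0.00653) and 0.72 for Ehhadh (adjusted p = 0.00150). Fabp3 had 52 counts in the ileum and 1 in the colon. Relative to total counts, without TMM scaling, this was a ratio of 80.9. Its 95% counting interval of 13.9 to 3257 leaves out differences between mice. In WTIEC the same ratio rested on 9 counts and 1 count and was 8.98 (1.24 to 394). Angptl4 was at 3.03 (adjusted p = 0.0595) and Ppara at 0.63 (adjusted p = 0.0980), and neither was called. Both were called with no filter on low counts (2.95 and 0.54), without colon replicate 2 (6.59 and 1.19), and with the shared replicate number of colon and ileum as a block (3.19 with an adjusted p = 0.0326 and 0.70 with an adjusted p = 0.0448). Ehhadh and Plin2 kept their calls without any single library in both genotypes. In WTIEC, Cpt1a lost its call without any one of the 4 libraries (adjusted p of 0.104 to 0.196) and Pdk4 without colon replicate 2, ileum replicate 1 or ileum replicate 2 (adjusted p of 0.103 to 0.127). In DDX5ΔIEC, Pdk4 was at −1.47 without colon replicate 2 and was not called, and it was also not called without either ileum library (adjusted p = 0.164 and 0.0955).

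**Figure D3:**
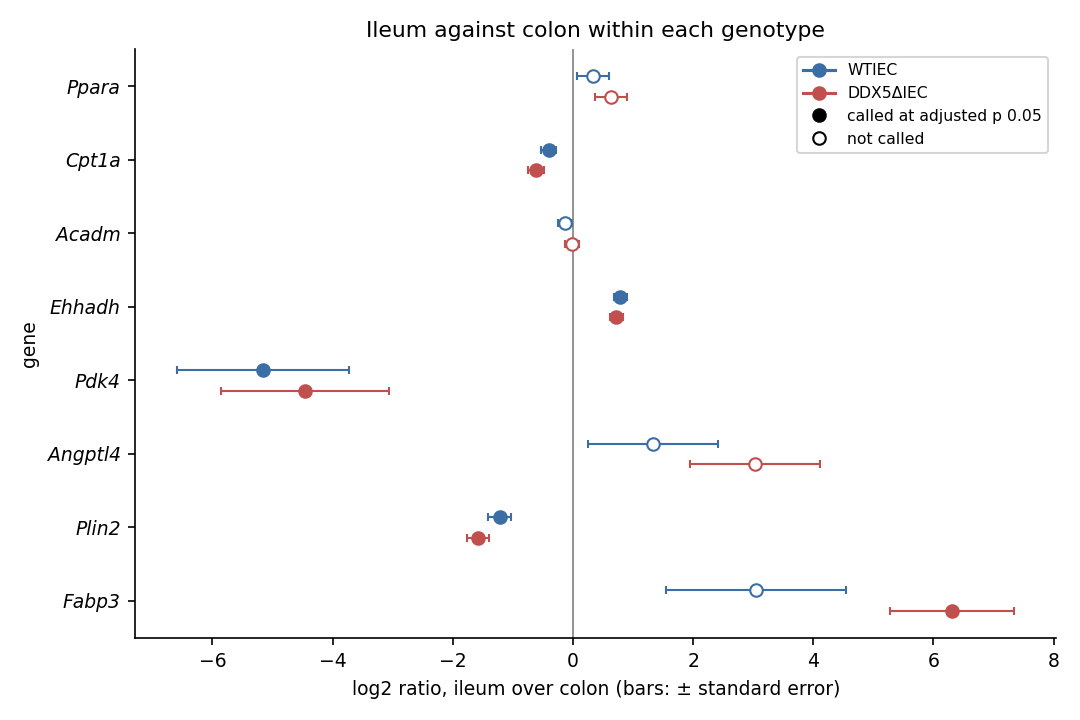
Log2 ratio of ileum over colon for each member (horizontal axis, bars are ± the standard error) in WTIEC and DDX5ΔIEC mice, with filled points for an adjusted p under 0.05. Pdk4, Plin2 and Cpt1a lay below 0 and Ehhadh above 0 in both genotypes, from −5.16 for Pdk4 to 0.79 for Ehhadh in WTIEC.

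The pathway around the members was described with 105 further genes in 10 lists, from receptors to ketone body enzymes. In the ileum against colon comparison of WTIEC, 85 were tested and 53 were called, 32 higher and 21 lower in the ileum (62.4%, against 34.2% of all genes), with a median log2 ratio of 0.17 (all genes −0.02). Of 12 genes of fatty acid uptake and activation, 8 were higher and 3 lower. The bile acid carrier Fabp6 (1490 against 1.47 CPM, log2 ratio 9.97) and the liver type carrier Fabp1 (47.8 against 0.451 CPM, 6.76) led the higher side. They were followed by Creb3l3 (56.1 against 1.46 CPM, 5.27), a membrane-bound transcription factor that works with PPARα. On the lower side, Lpl, the lipase that Angptl4 inhibits, was 0.370 against 8.10 CPM (−4.46), and Pparg, a sister receptor, was 10.2 against 71.6 CPM (−2.81). Acsl3, a long-chain acyl-CoA synthetase, was 45.0 against 187 CPM (−2.06). Oxct1, which uses ketone bodies, was 693 CPM in the ileum and 266 in the colon (1.38). Each of these 7 genes had an adjusted p of at most 0.000781 in edgeR. All except Oxct1 were picked as the largest ratios among the called genes, so their small adjusted p-values are no added support. Fabp1 passed the filter on low counts only through the ileum and Lpl only through the colon, the tissue where each is high. The number of pathway genes called includes such genes and is no support for the lists.

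In WTIEC, the called mitochondrial and peroxisomal β-oxidation genes each went in both directions between the tissues. Of 14 mitochondrial genes, 3 were higher and 4 lower in WTIEC ileum, 7 in all, with Acads, the short-chain dehydrogenase, lowest at −1.18. Of 14 tested peroxisomal genes, 4 were higher and 1 lower (35.7%), a share close to the 34.2% of all genes. Acot4 (1.40) was among the higher, and Ech1, an enoyl-CoA isomerase, was the lower (102 against 140 CPM, −0.45). In the carnitine shuttle, Cpt2 was higher (0.46) and the carrier Slc25a20 was lower (−0.86), beside the lower Cpt1a. In DDX5ΔIEC, 51 pathway genes were called, 28 higher and 23 lower in the ileum (60.0%, against 35.3% of all genes). There, 0 of 14 mitochondrial genes were higher and 6 were lower (42.9%). Of 14 tested peroxisomal genes, 4 were higher and 1 was lower (35.7%). The limit given above for genes such as Fabp1 and Lpl holds here too.

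The most abundant genes of each list per kilobase gave the setting of the members in WTIEC. Rxra, the partner of PPARα, was 149 CPM in the ileum and 84.0 in the colon (log2 ratio 0.82, adjusted p = 0.00202 in edgeR). Ppara lay in the same direction (means of 22.2 and 17.6 CPM) but was not called. Whether the ratios of Rxra and Ppara differed was not tested. Fabp2, the intestinal fatty acid carrier, was 1125 against 187 CPM (2.59). Plin3, another lipid droplet coat protein, was 223 against 69.5 CPM (1.68) and Cideb, which acts on droplets and lipoproteins, 58.2 against 9.98 CPM (2.54), both opposite in direction to Plin2. Of the pyruvate dehydrogenase kinases, Pdk1 (61.9 against 69.5 CPM, −0.17) and Pdk3 (26.0 against 26.4 CPM, −0.02) were not called, unlike Pdk4. Txnip, which limits glucose uptake, was 457 against 984 CPM (−1.10), and Aldh3a2, a fatty aldehyde dehydrogenase, was 150 against 107 CPM (0.48). Acadvl, the very long-chain dehydrogenase (146 against 172 CPM, −0.24), Phyh of peroxisomal α-oxidation (0.13), Bdh1, which interconverts ketone bodies (124 against 123 CPM, 0.02), and the mitochondrial carrier Ucp2 (0.42) were not called. Cyp4a31 had at most 0.214 CPM in any library and was not tested. None of the 12 tested genes met the criterion between genotypes in either tissue.

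**Figure D4:**
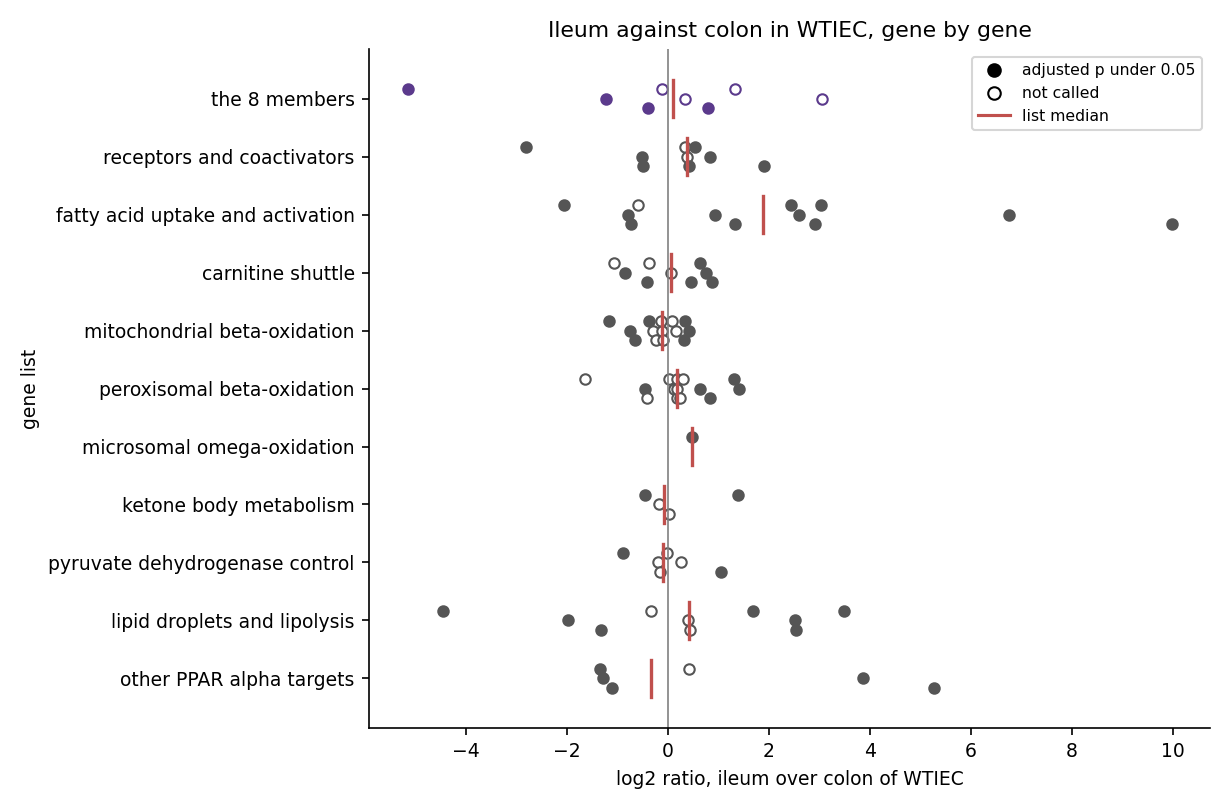
Log2 ratio of ileum over colon in WTIEC for each tested gene (1 point per gene), by gene list, with filled points for an adjusted p under 0.05 and a bar at the median of each list. The points run from −5.16 for Pdk4 to 9.97 for Fabp6, and the median of the uptake list was 1.89 against 0.10 for the members.

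Between genotypes, few pathway genes passed. In the colon, 4 of 82 tested genes met the criterion (4.88%, against 6.71% of all genes). Fabp6 (1.26 and 1.67 CPM in WTIEC, 2.76 and 3.56 in DDX5ΔIEC, log2 fold change 1.09) and Creb3l3 (1.73 and 1.19, then 2.59 and 2.51, 0.81) rose. Slc27a2, a very long-chain acyl-CoA synthetase, fell from 9.72 and 10.8 to 4.36 and 7.06 CPM (−0.88), and Fabp5 fell from 4.36 and 4.14 to 2.65 and 2.92 CPM (−0.62). Their adjusted p-values in edgeR were 0.303 to 0.403. Slc27a2 met the criterion under each alternative and without any single library, whereas Fabp6, Creb3l3 and Fabp5 lost their calls without any one of the 4 colon libraries and in DESeq2 with the block. The fits without 1 library had no replicate block, so those losses cannot be ascribed to the missing library alone. None of 14 mitochondrial, 14 peroxisomal and 8 carnitine shuttle genes was called, and the median log2 fold change of the 82 genes was −0.003 (all genes −0.0004).

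In the ileum, 6 of 83 tested pathway genes met the criterion (7.23%, against 7.35% of all genes), 1 higher and 5 lower, with a median of 0.03 (all genes −0.005). Acat1, a mitochondrial thiolase of ketone body metabolism, fell from 119 and 117 to 72.6 and 70.6 CPM (log2 fold change −0.72, SE 0.14, adjusted p = 0.0445), and Fabp1 fell by 1.02 (SE 0.19, adjusted p = 0.0428). Lpin1, a phosphatidate phosphatase and coactivator of PPARα, fell from 48.5 and 52.4 to 29.2 and 34.9 CPM (−0.66). Acacb, which makes the malonyl-CoA that holds back Cpt1a, fell by 0.65 and the acyl-CoA synthetase Acsl4 fell by 0.53, by the criterion on unadjusted p. Acot4, a peroxisomal thioesterase, rose from 29.4 and 34.1 to 43.8 and 47.6 CPM (0.53). The adjusted p was 0.0714 for Lpin1, 0.137 for Acot4, 0.170 for Acacb and 0.247 for Acsl4 in edgeR. Acacb lost its call without any one ileum library, Lpin1 and Acsl4 without any one but DDX5ΔIEC replicate 2, and Acot4 without WTIEC replicate 1 or DDX5ΔIEC replicate 2. These fits also had no replicate block, so the losses cannot be ascribed to the missing library alone. Without the replicate number as a block, the adjusted p was 0.305 for Acat1 and 0.449 for Fabp1. Acat1 and Fabp1 met the criterion under each alternative tried, including each fit without 1 library.

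Pdk4, Angptl4 and Ppara in the colon shared a feature that was looked at after their values were seen. In both genotypes the replicate numbered 2 was the higher. The ratio of replicate 2 to replicate 1 was 9.22 in WTIEC and 22.3 in DDX5ΔIEC for Angptl4, 3.25 and 14.9 for Pdk4 and 1.15 and 1.95 for Ppara. In the term of the genotype fit that compares replicates 2 with replicates 1, these 3 of 7 members passed the log2 and unadjusted p thresholds, against 2.37% of all genes tested. The feature was taken from these same values, so this count is no support for it. Over 15362 colon genes, the same number did not show pairing (correlation of same-number deviations 0.00559). The log2 difference was 3.72 (SE 0.38, adjusted p = 0.523) for Angptl4, 2.68 (SE 0.52, adjusted p = 0.821) for Pdk4 and 0.58 (SE 0.21, adjusted p = 0.821) for Ppara in edgeR. In DESeq2 with the same design the adjusted p was 7.67e-05 for Angptl4 and 0.858 for Pdk4, and Ppara no longer passed. Of 82 pathway genes, 6 also passed on the higher side of the replicates 2, by 0.72 to 2.02. They were Mgll (a monoacylglycerol lipase), Cidec (a lipid droplet protein), Acaa1b (a peroxisomal thiolase), Vnn1 (a pantetheinase), Acacb and Lpl. Pdp1, a phosphatase that opposes Pdk4, was lower (−0.51). In the ileum the same term called none of the 7 tested members, against 5.69% of all genes.

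Part of this lay in 1 library. Acaa1b was 2.73 and 6.21 CPM in WTIEC colon and 4.56 in DDX5ΔIEC replicate 2, but 0.386 in DDX5ΔIEC replicate 1. Vnn1 was 3.41 and 5.90 CPM in WTIEC and 6.34 in DDX5ΔIEC replicate 2, but 0.773 in DDX5ΔIEC replicate 1. The same library had the highest Plin2 and the highest sum of mature absorptive markers, given above. Within that list the direction was mixed, since Slc26a3 was 1310 CPM there against 596 to 815, and Sis was 0.386 CPM against 4.67 to 12.2. Goblet cell markers summed to 24540 CPM in that library against 38430 to 48430. The part of these cell type markers in the levels of the members was not tested. Whether the replicates that share a number also shared a harvest is not stated in the sources used here.

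**Figure D5:**
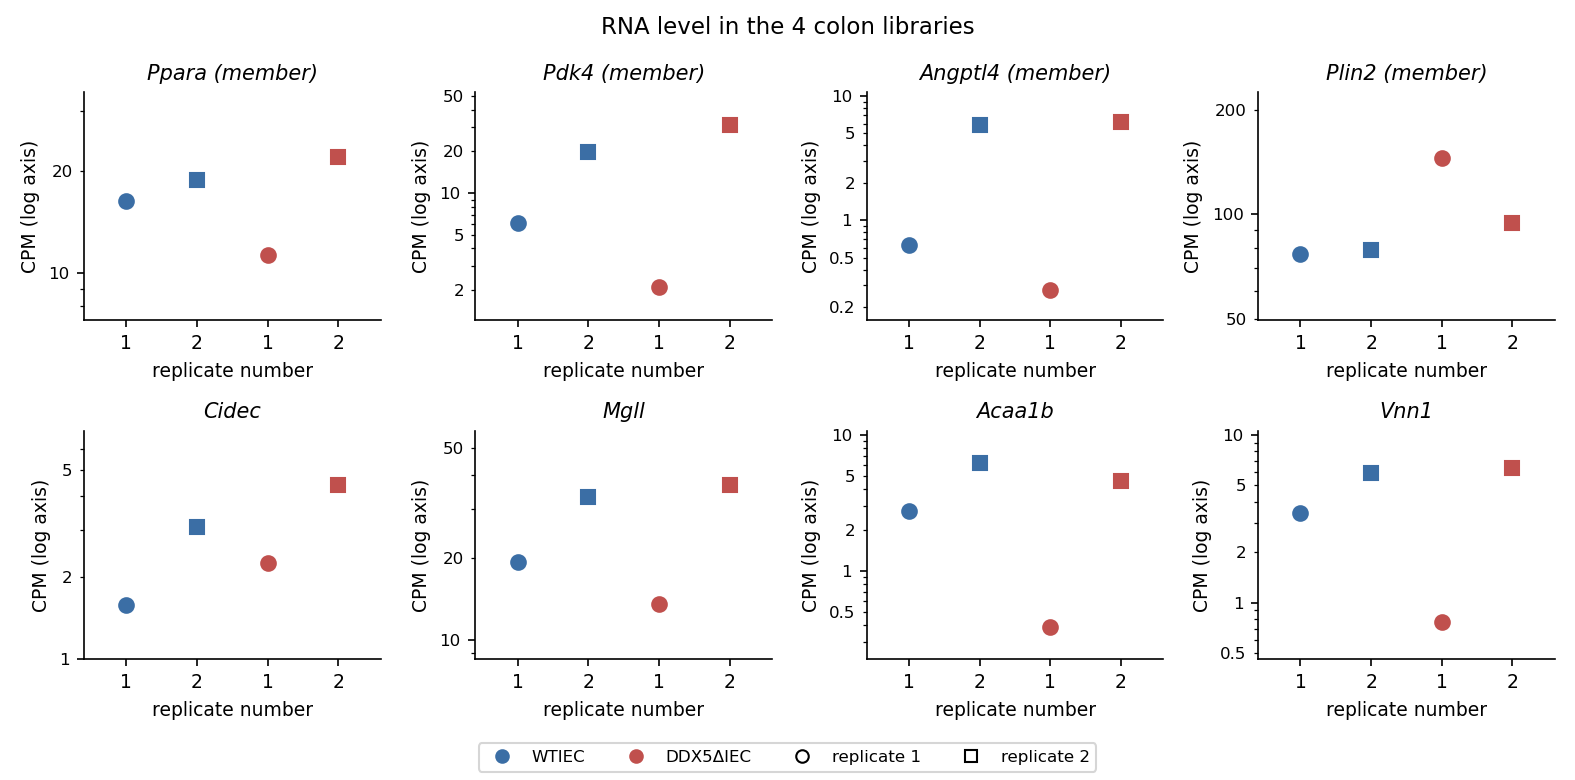
CPM on a log axis in the 4 colon libraries (blue, WTIEC; red, DDX5ΔIEC; circles, replicate 1; squares, replicate 2) for 4 members and 4 other genes of the pathway. In Ppara, Pdk4, Angptl4, Mgll, Acaa1b and Vnn1 DDX5ΔIEC replicate 1 was the lowest of the 4 libraries, and in Plin2 it was the highest, at 146 CPM.

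Last, the genes whose profile over the 8 libraries was nearest to each member were taken, by the root mean square difference of centred log2 CPM. The nearest were Galnt7 for Cpt1a (0.0468), Hps4 for Acadm (0.0440), Myo5b for Ehhadh (0.0491), Slc26a2 for Plin2 (0.103) and B4galnt2 for Ppara (0.107). The next were Trio for Cpt1a (0.0496), Tmem59 for Acadm (0.05005), Sec16b for Ehhadh (0.0593), Kyat1 for Plin2 (0.114) and Mthfd2 for Ppara (0.115). Slc26a2, a sulfate transporter, was 1037 and 900 CPM in WTIEC colon, 1919 and 1223 in DDX5ΔIEC colon and 446 to 606 in the ileum. Like Plin2, it was highest in DDX5ΔIEC colon replicate 1 and next in DDX5ΔIEC colon replicate 2. Fabp3 (Epop, 0.388, and Bco1, 0.396), Pdk4 (Gm43189, 0.535, and Phf11b, 0.700) and Angptl4 (Cyp3a25, 0.894, and Mmp23, 0.898) lay farther from their nearest genes, each of which was itself at most 15.1 CPM in every library. No other member was among the 2 nearest genes of any member.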

How the data were processed

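IECs from the colon and ileum of 2 mice per genotype gave 8 ribosome-depleted, stranded, 100-bp paired-end libraries. The authors aligned reads to mm10 with STAR 2.6.1a and deposited raw counts of uniquely mapped reads over exons per gene of GENCODE vM19 (featureCounts, version not given in the sources used here). The deposited tables also hold the authors' normalized read counts (signal, counts divided by DESeq2 1.18.1 size factors), log2 fold changes, their standard errors and Wald statistics (score values) and p-values with harvest as a covariate. None of these was used.

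Tables were joined by gene identifier (28349 genes in colon, 38649 in ileum), and a gene listed in one table only was set to 0 in the other. Symbols that had become dates were restored (25 in colon, 26 in ileum). TMM scaling, filterByExpr (minimum count 10) and edgeR 4.0.16 quasi-likelihood fits in R 4.3.3 were used. Each tissue was fitted on its 4 libraries with genotype and replicate number, and tissues and the interaction on all 8 libraries with 4 group means. Genotype calls needed an absolute log2 fold change of at least 0.5 and an unadjusted p under 0.05. Tissue calls needed a Benjamini-Hochberg adjusted p under 0.05 over all genes tested (15362 in colon, 14068 in ileum, 16178 over all). With 2 mice a group, an exact two-sided permutation test reaches 0.333 at the least, so the p-values rest on a spread shared across genes. Simulated data were used only to check that the genotype contrasts and the WTIEC tissue contrast recovered a set log2 change on average. The interaction, the DDX5ΔIEC tissue contrast and the replicate term were not simulated, and error rates are not given here. Whether colon and ileum libraries with the same replicate number came from the same mouse is not stated in the sources used here, so the tissues may not be independent, and a block on that number was an alternative only. Intervals on counts cover counting error only.

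The members and gene lists were chosen with earlier results of these data known. A few pathway genes are not reported here and were left out of the list counts. By rule, the text names the members, Ddx5, pathway genes called between genotypes, the 2 genes of highest mean CPM per kb in each list, the 3 highest and 3 lowest WTIEC tissue ratios, and the 2 nearest profiles of each member (log2 of CPM with 0.5 added). Fabp3-ps1, the genes of the replicate term, and Acta1, Myh6, Sis, Slc26a3, Ang4, Lyz1, Defa24 and Mmp7 were named after their values were seen. Positions are from GENCODE vM21 on GRCm38 for genes with the same identifier version, so none is given for Cpt1a and Angptl4. Alternatives were DESeq2 1.42.0 with and without the block, no block, crossed pairs, RLE size factors, other filters, all 8 libraries in one fit, removal of the 3 repeat-like genes, and leaving out each library. Each fit without 1 library held the other 7 of both tissues, with group means and no replicate block.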

Additional observations from a re-analysis of the deposited data

How the results depend on the processing

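Leaving out each library gave 1 to 3 members and 1 to 6 pathway genes called in the colon (1 and 4 with all libraries), 1 member and 2 to 8 pathway genes in the ileum (2 and 6), and 2 to 3 members and 33 to 38 pathway genes between WTIEC tissues (4 and 53). For the interaction it gave 0 pathway genes. The fits without 1 library held the other 7 libraries of both tissues, with 4 group means and no replicate block. For the colon and the ileum, the values in brackets come from the blocked fits of each tissue alone. A change of count or sign there cannot be ascribed to the missing library alone. The colon log2 fold changes of 6 members changed sign, with ranges of −3.55 to 2.38 for Angptl4, −2.63 to 1.46 for Pdk4, −0.64 to 0.33 for Ppara, −0.13 to 0.0679 for Ehhadh, −0.0398 to 0.16 for Acadm and −0.00518 to 0.16 for Cpt1a. So did the DDX5ΔIEC tissue ratio of Acadm (−0.13 to 0.12) and the interactions of Angptl4 (−0.66 to 5.28), Pdk4 (−0.68 to 3.69), Ppara (−0.10 to 0.87) and Ehhadh (−0.16 to 0.0382). DESeq2 with the replicate block, DESeq2 with no replicate block and the crossed pairs each called 2 pathway genes in the colon. Both DESeq2 fits and the fit of all 8 libraries called 1 member and 4 pathway genes in the ileum. Pdk4 in the colon was 0.36 with no replicate block, 0.35 in DESeq2 with no replicate block and 0.37 over all 8 libraries, where Angptl4 was 0.00695. The DDX5ΔIEC tissue ratio of Acadm was 0.0234 with RLE size factors and 0.0236 in DESeq2. With no filter on low counts the interaction called 1 member and 1 pathway gene, and the ileum replicate term called 1 member, with Ppara at −0.0121 and Ehhadh at −0.00396. The causes were not tested.

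The same replicate number did not show pairing in the colon (correlation of same-number deviations 0.00559 over 15362 genes) and did so weakly in the ileum (0.240 over 14068 genes). Without the replicate block the counts of members called stayed at 1 and 2, but genes with an adjusted p under 0.05 went from 0 to 5 in the colon and from 98 to 1 in the ileum. Fabp3, Acat1 and Fabp1 then lost their adjusted calls there. With the number shared by colon and ileum as replicate block, Ppara and Angptl4 were also called between DDX5ΔIEC tissues. Depth limits Fabp3 in the colon and Pdk4 in the ileum.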
